A study of Homo sapiens with 17 samples.

Results

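RNA profiles of 4 libraries of K562 cells are described, those whose plasmid labels carry a number before the gene: 22-LAPTM4B and 23-GOLGA8N against 20-ARSF and 21-CTPS2. They are 4 of the 17 libraries of the series and are defined by the number on the label, not by a measured value. K562 is a human chronic myeloid leukaemia line that makes fetal and embryonic globins. The cells of all 4 libraries were electroporated with plasmids holding CRISPR components meant to switch on the named human gene, were afterwards exposed to an antisense oligonucleotide, and were collected on day 6. Neither the oligonucleotide nor the guides are named in the labels, which also do not say what the numbers before the gene stand for.

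The series asks about genes that alter how much antisense oligonucleotide cells take up and how well it works. ARSF and CTPS2 are set here as the other side because they are the only other prefixed labels, and nothing in the labels calls them controls. The 13 libraries without a prefix are the same cells with the same treatment and day. Of these, 2 are labelled LAPTM4B, 2 GOLGA8N, 5 name other human genes (TTR, TRPC5OS, ADORA2A, UBE2V1, COL6A6), 3 are labelled Neg, GFP and RFP, and 1 is labelled E7, a label that is not explained.

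The 4 targets belong to different compartments. LAPTM4B encodes a membrane protein of late endosomes and lysosomes. GOLGA8N is a member of the golgin subfamily A8, coiled-coil proteins related to GM130 of the cis-Golgi, encoded by many near-identical copies on chromosome 15. ARSF encodes an arylsulfatase, a sulfate ester hydrolase. CTPS2 encodes CTP synthase 2, which makes the cytidine nucleotide from UTP. CRISPR activation brings a transcriptional activator to the promoter of a gene with a guide RNA, so success would show as more RNA of that gene. Antisense oligonucleotides enter by endocytosis and mostly stay in endosomes and lysosomes, which is why vesicle traffic between the Golgi and endosomes is described below.

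Each side holds 2 libraries with different target genes, so they are not replicates of 1 condition, and the labels do not say that libraries came from separate cultures. The p-values below therefore speak only of the scatter among these 4 libraries, which could be technical. Each library had 2174638 (23-GOLGA8N), 2754033 (21-CTPS2), 3457393 (22-LAPTM4B) or 4090195 (20-ARSF) reads in annotated genes, within the range of 549962 (GFP) to 4090195 reads over the series. Levels are given as CPM, the usual counts scaled to a common library size, here the reads in genes. A count of 3 reads, used as the floor, was 0.733 to 1.38 CPM in the 4 libraries, and covers counting error only. Across 7258 genes averaging at least 10 CPM, the Spearman correlation was 0.888 between 20-ARSF and 21-CTPS2, 0.88 between 22-LAPTM4B and 23-GOLGA8N, and 0.856 to 0.896 between libraries of different sides. Libraries of 1 side were thus not more alike than libraries of different sides, and genes are not independent replicates. No pair of the 4 looked like 1 library deposited again, since the chi-square per degree of freedom over genes was 7.45 to 13.1. The unprefixed library most like 21-CTPS2, 22-LAPTM4B and 23-GOLGA8N was E7 (0.887 to 0.91), and for 20-ARSF it was ADORA2A (0.912) ahead of E7 (0.911). E7 and ADORA2A were also the deepest unprefixed libraries, with 4016411 and 4011633 reads in genes. How far depth sets these correlations was not tested. The labels call the cells lymphoblasts. All 12 erythroid markers looked for had at least 3 reads in each of the 4 libraries, whereas 7 of 12 lymphoid markers, among them CD3E, MS4A1, CD79B and PAX5, were at 0 in all 4. CD3D, the 1 lymphoid marker with at least 3 reads in each, stood at 41.3 and 41.4 CPM in 20-ARSF and 21-CTPS2 and 90 and 66.7 CPM in 22-LAPTM4B and 23-GOLGA8N.

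Each library was checked for a high level of the gene on its label. None of the 4 stood above the floor of 3 reads and higher in its own library than in every other. LAPTM4B, on chromosome 8 (97775057 to 97853013, plus strand), stood at 166 CPM in 22-LAPTM4B and 156 CPM in 23-GOLGA8N, against 234 CPM in 20-ARSF and 306 CPM in 21-CTPS2. Its own library was thus below both libraries of the other side. The log2 difference of the LAPTM4B and GOLGA8N side to the ARSF and CTPS2 side was -0.68 ± 0.207 (SE), which did not pass (edgeR quasi-likelihood test, adjusted p = 0.768), and the unprefixed libraries spanned 160 to 281 CPM. CTPS2, on the X chromosome (16588003 to 16712936, minus strand), stood at 16 CPM in 21-CTPS2, 10.8 CPM in 20-ARSF, 8.10 CPM in 22-LAPTM4B and 11 CPM in 23-GOLGA8N. Its own library was the highest of the 4, but unprefixed libraries reached 18.3 CPM. No read was assigned to ARSF in any of the 17 libraries, so that 3 reads, 0.733 CPM, bound its level in 20-ARSF.

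GOLGA8N itself, on chromosome 15 (32593456 to 32607310, plus strand), was given 0.318 CPM in 23-GOLGA8N and 0.079 CPM in 20-ARSF, both under the floor. Reads of the GOLGA8 copies cannot be assigned to single genes with certainty, since the quantifier divides reads among near-identical transcripts. The noncoding AC091057.3, on chromosome 15 (30616958 to 30617749), stood at 17.1 CPM in 23-GOLGA8N and at 0.27 to 0.807 CPM in the other 3. It was also high in both unprefixed GOLGA8N libraries, at 76.3 and 50.1 CPM, and at most 2.01 CPM in the remaining unprefixed ones. GOLGA8A stood at 34.4 and 28 CPM in 20-ARSF and 21-CTPS2 and at 53.1 and 43.4 CPM in 22-LAPTM4B and 23-GOLGA8N, so the sides did not overlap, but 22-LAPTM4B, not 23-GOLGA8N, was the highest. GOLGA8B was 16.2 and 28.9 CPM against 40.9 and 20.5 CPM, which overlapped. The pseudogene copy GOLGA8IP was 2.92 CPM (6.4 reads) in 23-GOLGA8N and 0 in the other 3, and 10.4 and 0.573 CPM in unprefixed GOLGA8N 1 and 2. The pseudogene copy GOLGA8EP was 5.31 CPM in 23-GOLGA8N and 0 to 0.81 CPM in the other 3. It was 0 and 0.107 CPM in unprefixed GOLGA8N 1 and 2, and up to 4.43 CPM in other unprefixed libraries. Among relatives of LAPTM4B, LAPTM4A was 173 and 143 CPM against 165 CPM in both libraries of the other side, and LAPTM5 was 7.09 and 6.90 CPM against 11.9 and 12.9 CPM. CTPS1, the paralogue of CTPS2, was 40.1 and 67.5 CPM on the ARSF and CTPS2 side and 29.4 and 24.4 CPM on the other (log2 -0.92 ± 0.352).

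The sides were next compared over all genes. With only 2 libraries a side, an exact permutation test of a single gene cannot go below 0.333 (two-sided), so genes were tested together in 1 edgeR quasi-likelihood fit. Of 10696 genes tested, 5 were called higher on the LAPTM4B and GOLGA8N side (0.0467%) and 1 lower (0.00935%) at an adjusted p under 0.05. At an unadjusted p under 0.05 there were 535 genes, 5% of those tested. The median log2 difference over all genes tested was 0.01. Leaving out 1 library gave more calls, 86 without 20-ARSF, 73 without 21-CTPS2, 53 without 22-LAPTM4B and 21 without 23-GOLGA8N, in fits that assume the lone library of a side to vary like the other side.

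Counts of genes whose sides do not overlap give the background for what follows. After TMM scaling, 1894 genes (17.7%) were higher and 1848 (17.3%) lower in both libraries of the LAPTM4B and GOLGA8N side than in both of the other. On plain CPM the counts were 1607 (15%) and 2203 (20.6%), and the share that was higher moved from 50.6 to 42.2%, since scaling by library totals alone shifts the median log2 difference by -0.06. Among the 7258 genes averaging at least 10 CPM, 133 (1.83%) were at least 2-fold higher without overlap and 147 (2.03%) at least 2-fold lower. Protein-coding genes made up 103 of the former and 139 of the latter. After TMM scaling 171 of 277 such genes were higher, so which direction holds more of them depends on the scaling.

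**Figure D1:**
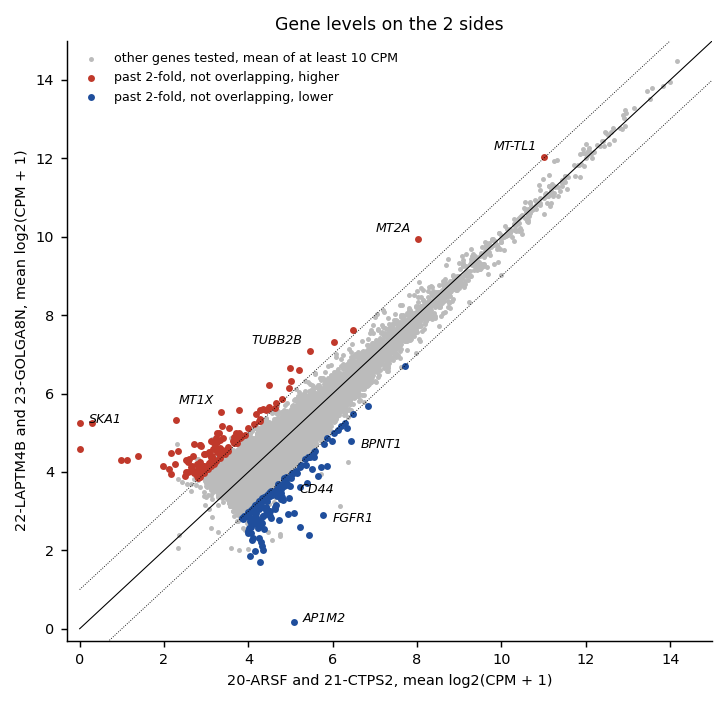
Mean log2(CPM + 1) of each gene averaging at least 10 CPM, on the ARSF and CTPS2 side (x axis) and on the LAPTM4B and GOLGA8N side (y axis). Each point is a gene, the solid line marks equal levels, the dotted lines 2-fold, and colour the 133 higher (red) and 147 lower (blue) genes past 2-fold without overlap. SKA1 lies at the left edge and AP1M2 near the bottom, where 1 side has almost no reads, while MT-TL1 lies on and TUBB2B just past the upper dotted line.

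Of the 6 called genes, 4 were nearly all-or-none between the sides: SKA1, VPS28 and the antisense transcript AP000777.3 had reads on the LAPTM4B and GOLGA8N side almost alone, and AP1M2 on the ARSF and CTPS2 side almost alone. These 4 passed the low-count filter only through the side where they were high. Their adjusted p-values are therefore not independent of that selection. The other 2, the mitochondrial tRNA MT-TL1 and the tubulin TUBB2B, were well counted in all 4 libraries and rose 2.12-fold and 3.32-fold. These 2 were also the called genes with reads in every unprefixed library.

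SKA1 encodes a subunit of the spindle and kinetochore associated complex, which holds chromosomes on microtubule ends (chromosome 18, 50374995 to 50394173, plus strand). It had 36.0 CPM in 22-LAPTM4B and 37.6 CPM in 23-GOLGA8N, and 0 in 20-ARSF and 21-CTPS2. Against the floor of 3 reads over the side it was at least 83.4-fold higher (edgeR adjusted p = 0.00495). In the unprefixed libraries SKA1 ranged from 0 to 41.7 CPM, with less than 0.5 read in 6 of 13 and at least 10 CPM in 4, so some unprefixed libraries too held almost none of it, and the highest slightly more than 22-LAPTM4B and 23-GOLGA8N.

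VPS28 is a subunit of ESCRT-I, which sorts ubiquitinated receptors into the vesicles of multivesicular endosomes (chromosome 8, 144423601 to 144428563, minus strand). It had 51.1 CPM in 22-LAPTM4B and 26.4 CPM in 23-GOLGA8N, against 0.489 CPM in 20-ARSF and 0 in 21-CTPS2. That is 234 reads against 2, a ratio of 142 with a 95% counting interval of 38.9 to 1181, and a log2 difference of 6.95 ± 0.813 (edgeR adjusted p = 0.0091). Unprefixed libraries ranged from 0 to 63.6 CPM with a median of 32.1 CPM, and 9 of the 13 had at least 10 CPM. Here the ARSF and CTPS2 side is the unusual one, since most unprefixed libraries stood near the LAPTM4B and GOLGA8N side.

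AP000777.3 is transcribed from the strand opposite CCDC86 on chromosome 11 (60841806 to 60851081, minus strand). It had 23.0 and 23.2 CPM in 22-LAPTM4B and 23-GOLGA8N and 0 in both others, at least 52.7-fold higher (edgeR adjusted p = 0.0173). CCDC86 itself stood at 128 and 87.3 CPM on the ARSF and CTPS2 side and 76.7 and 37.9 CPM on the other. Reads of overlapping genes on opposite strands are uncertain here, because no source used here gives the strand setting of the counting. The unprefixed libraries held 0 to 36.6 CPM of AP000777.3.

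AP1M2 encodes the epithelial medium subunit of the AP-1 clathrin adaptor, which carries cargo between the trans-Golgi network and endosomes (chromosome 19, 10572671 to 10587315, minus strand). It had 66.7 CPM in 20-ARSF and 16 CPM in 21-CTPS2, 0.289 CPM in 22-LAPTM4B and 0 in 23-GOLGA8N. The ratio was 261 on 317 reads against 1, with a 95% counting interval of 46.5 to 10335, and the log2 difference was -7.55 ± 1.05 (edgeR adjusted p = 0.0227). No unprefixed library exceeded 2.64 CPM, so the reads of AP1M2 came mostly from 20-ARSF and 21-CTPS2. AP1M1, the widely expressed form of the same subunit, was 64.3 and 66.5 CPM against 43.9 and 33.1 CPM (log2 -0.69 ± 0.291), which did not pass.

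TUBB2B encodes a beta-tubulin best known from developing neurons (chromosome 6, 3224261 to 3231730, minus strand). It stood at 39.9 CPM in 20-ARSF and 46.1 CPM in 21-CTPS2, and at 149 CPM in 22-LAPTM4B and 123 CPM in 23-GOLGA8N. Its log2 difference was 1.73 ± 0.255 (edgeR adjusted p = 0.0324). Among the 13 unprefixed libraries it had a median of 35.6 CPM, and only E7, at 96.6 CPM, exceeded 50 CPM. TUBB2A, its close copy on the same chromosome, was 69.9 and 79.6 CPM against 93.5 and 84.2 CPM (log2 0.32). MT-TL1, the mitochondrial tRNA for leucine (UUR codons), is described with the mitochondrial genes below.

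The calls depended on the analysis. TUBB2B was called in 11 of 12 alternative analyses, MT-TL1 and SKA1 in 10, VPS28 and AP000777.3 in 9 and AP1M2 in 8, and none changed direction. When the spread was estimated together with 9 unprefixed libraries, 1 of the 6, TUBB2B, was still called by edgeR.

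**Figure D2:**
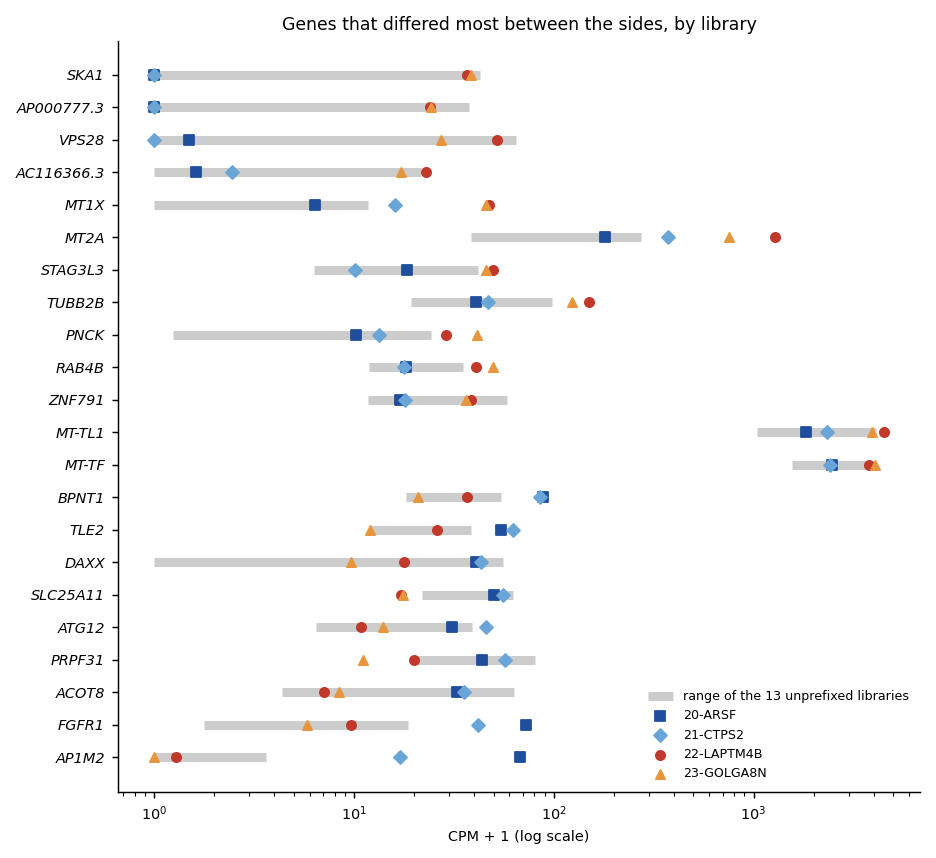
Levels as CPM + 1 on a log axis of the genes described here with the lowest p and the widest gaps between the sides, ordered by their log2 difference, with 1 marker for each of the 4 prefixed libraries and a grey bar for the range of the 13 unprefixed libraries. The bars of SKA1, VPS28 and AP000777.3 span nearly the whole distance between the sides, whereas the markers of AP1M2 in 20-ARSF and 21-CTPS2 (66.7 and 16 CPM) lie to the right of its bar.

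The next genes by p did not pass edgeR's test. FGFR1, a fibroblast growth factor receptor, was 71.3 and 40.7 CPM in 20-ARSF and 21-CTPS2 and 8.63 and 4.83 CPM in 22-LAPTM4B and 23-GOLGA8N (log2 -2.97 ± 0.471, edgeR adjusted p = 0.055, DESeq2 adjusted p = 0.000423). No unprefixed library exceeded 17.6 CPM, so that, as with AP1M2, the ARSF and CTPS2 side was above the whole series. ACOT8, a peroxisomal acyl-CoA thioesterase, was 31.7 and 34.4 CPM against 6.09 and 7.45 CPM (log2 -2.24 ± 0.471). It ranged from 3.36 to 62.2 CPM without a prefix. AC116366.3 was 0.615 and 1.45 CPM against 21.9 and 16.3 CPM (edgeR adjusted p = 0.148, DESeq2 adjusted p = 0.0176), and passed edgeR's low-count filter only through the side where it was high. It overlaps IRF1, an interferon-responsive transcription factor on the opposite strand, which was 8.73 and 6.7 CPM against 19.2 and 37.2 CPM (log2 1.91 ± 0.524).

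Genes averaging at least 20 CPM were then ranked by the gap between the sides. In the higher direction the widest gaps included those of MT1X, MT2A, TUBB2B, STAG3L3, RAB4B, PNCK and ZNF791, and of these TUBB2B alone passed edgeR's test. RAB4B, a small GTPase of recycling endosomes, was 17.3 and 16.9 CPM on the ARSF and CTPS2 side and 39.7 and 48.6 CPM on the other (log2 1.42 ± 0.366), above the unprefixed maximum of 34 CPM. PNCK, a calmodulin-dependent kinase gene, was 9.29 and 12.3 CPM against 27.8 and 40.5 CPM (log2 1.72 ± 0.447), also above every unprefixed library (at most 23.4 CPM). The zinc finger gene ZNF791 was 16.1 and 17.1 CPM against 37.5 and 35.4 CPM, and unprefixed libraries reached 57.1 CPM. STAG3L3, a partial copy of the cohesin gene STAG3, was 17.4 and 9.13 CPM against 48.5 and 44.7 CPM, with an unprefixed maximum of 40.9 CPM.

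In the lower direction the widest gaps were those of AP1M2, FGFR1, BPNT1, SLC25A11, DAXX, ATG12, PRPF31 and TLE2, with AP1M2 alone called by edgeR. BPNT1, a phosphatase that breaks down the by-product of sulfation reactions, was 86.9 and 84.6 CPM on the ARSF and CTPS2 side against 35.9 and 19.9 CPM (log2 -1.54 ± 0.326, edgeR adjusted p = 0.438). Unprefixed libraries reached only 53.5 CPM, so BPNT1 was above the series in 20-ARSF and 21-CTPS2. SLC25A11, the mitochondrial oxoglutarate carrier, was 49.1 and 54.8 CPM against 16.2 and 16.6 CPM (log2 -1.60 ± 0.351), and its unprefixed range of 20.9 to 61.8 CPM lay wholly above the LAPTM4B and GOLGA8N side. ATG12, which is conjugated to ATG5 during autophagosome formation, was 29.8 and 45.0 CPM against 9.83 and 13 CPM (log2 -1.66 ± 0.438). DAXX, a histone H3.3 chaperone, was 39.7 and 42.1 CPM against 16.9 and 8.69 CPM. PRPF31, a component of the splicing tri-snRNP, was 42.9 and 56.1 CPM against 18.9 and 10.1 CPM. TLE2, a Groucho-family corepressor, was 53.5 and 61.7 CPM against 25.2 and 11 CPM, and here too the ARSF and CTPS2 side exceeded every unprefixed library (at most 37.6 CPM). None of these lower genes but AP1M2 passed edgeR's test, and DESeq2 called FGFR1 too.

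Metallothioneins are small cysteine-rich proteins that bind zinc and copper, and their genes on chromosome 16 are switched on by the zinc-sensing factor MTF1 through metal response elements. Of 6 metallothionein genes looked for, 3 had a promoter in the RefSeq table (GRCh38.p14), and these 3 are shown because the results on metallothioneins turn on MT2A and MT1X. The 250 bases before the annotated start are given in lower case, 5′ to 3′ on the strand of the gene, with the core of the metal response element in capitals (TGCACNC or TGCGCNC, read on both strands, so that a match on the other strand appears as its reverse complement). MT2A lies at chr16:56608334-56608583, MT1X at chr16:56682220-56682469 and MT1H at chr16:56669564-56669813, all on the plus strand.
MT2A: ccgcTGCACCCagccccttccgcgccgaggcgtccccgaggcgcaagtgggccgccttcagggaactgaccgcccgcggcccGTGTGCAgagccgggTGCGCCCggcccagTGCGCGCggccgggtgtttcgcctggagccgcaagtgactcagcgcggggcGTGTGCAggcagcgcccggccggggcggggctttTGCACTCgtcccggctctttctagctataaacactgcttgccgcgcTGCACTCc
MT1X: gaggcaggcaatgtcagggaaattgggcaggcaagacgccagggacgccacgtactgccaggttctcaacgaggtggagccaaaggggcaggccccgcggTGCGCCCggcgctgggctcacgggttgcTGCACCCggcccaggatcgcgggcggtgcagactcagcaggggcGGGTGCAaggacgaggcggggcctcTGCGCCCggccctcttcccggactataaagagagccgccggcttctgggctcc
MT1H: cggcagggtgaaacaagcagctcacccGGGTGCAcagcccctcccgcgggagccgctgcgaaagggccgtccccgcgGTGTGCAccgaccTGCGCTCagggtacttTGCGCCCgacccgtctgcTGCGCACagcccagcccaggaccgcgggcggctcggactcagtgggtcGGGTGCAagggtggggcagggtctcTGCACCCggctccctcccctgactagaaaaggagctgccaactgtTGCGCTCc
The MT2A window held 7 matches, MT1X 4 and MT1H 8. Of 35116 promoters of the same length, 24.8% held at least 1 match, 0.37% at least 4, 0.0313% at least 7 and 0.0171% at least 8. A match describes the letters and shows neither binding nor a cause.

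The metallothioneins had the largest median difference of the lists described here, and no member was called by edgeR. MT2A stood at 179 CPM in 20-ARSF, 374 CPM in 21-CTPS2, 1283 CPM in 22-LAPTM4B and 755 CPM in 23-GOLGA8N (log2 1.96 ± 0.368, edgeR adjusted p = 0.452, limma-voom adjusted p = 0.000596). All 4 libraries were above the unprefixed median of 56.8 CPM, and 3 of them above the unprefixed maximum of 271 CPM, which was E7. MT1X was 5.41 and 15.1 CPM against 46.6 and 44.6 CPM (log2 2.25 ± 0.483), with an unprefixed maximum of 10.8 CPM. MT1G was 9.87 and 44.9 CPM against 95.3 and 56.4 CPM, so 21-CTPS2 lay closer to 23-GOLGA8N than to 20-ARSF. MT1H was 1.24 and 2.65 CPM against 23.5 and 5.37 CPM, high in 22-LAPTM4B alone. MT1F was 2.44 and 7.63 CPM against 15.6 and 13.8 CPM, and MT1E overlapped between the sides at 10.5 and 23.2 CPM against 34.1 and 15.6 CPM.

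Of 9 metallothionein genes tested, 6 had a positive log2 difference, 5 were higher without overlap and 1 lower, against 17.7% and 17.3% of all genes. The 6 positive genes are those named above with their levels. The 3 negative ones, among them the 1 lower without overlap, are not shown. MT1H, at 1.24 and 2.65 CPM on the ARSF and CTPS2 side, passed the low-count filter through the side where it was high. It therefore adds no separate evidence to these counts. The median log2 difference of the 9 genes was 1.59, against 0.01 over all genes. It was 0.86 without 20-ARSF and 2.54 without 21-CTPS2, so the size depends on which library represents the lower side. The summed level of the list was 244 and 500 CPM against 1518 and 918 CPM, and 68.3 to 333 CPM without a prefix. The list's median difference between LAPTM4B or GOLGA8N and the other gene labels without a prefix was 0.03. That median covers only 6 genes and leaves out MT1G and MT1H, which were not tested there, so the 2 medians are not of the same genes.

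**Figure D3:**
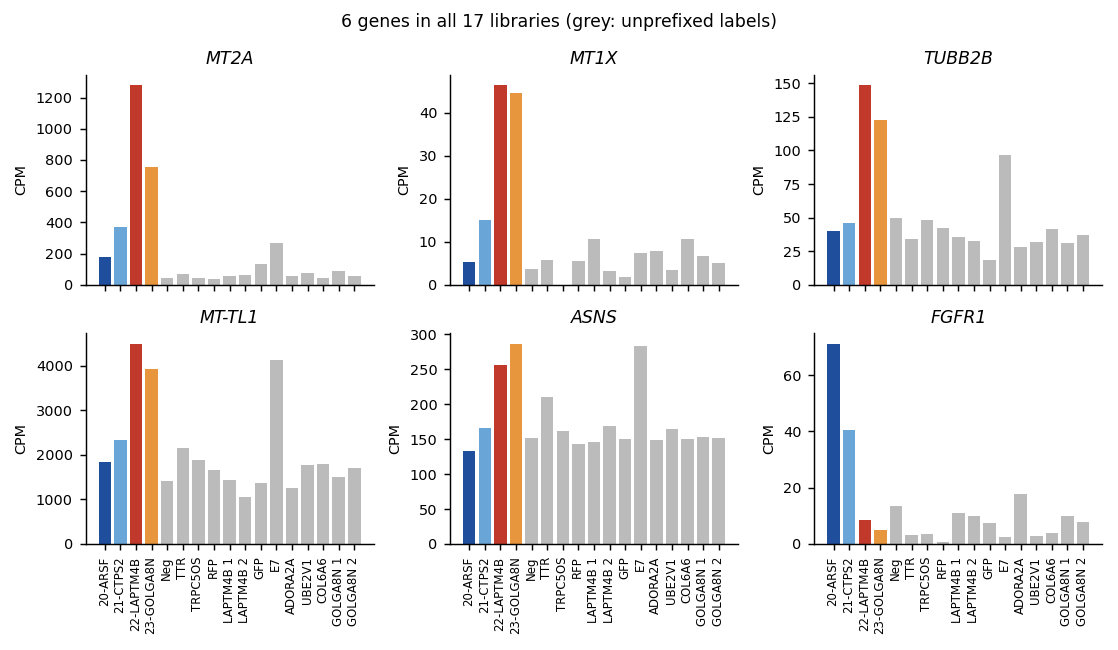
Levels in CPM (bars from 0, each panel with its own axis) of 6 genes in all 17 libraries, the 4 prefixed libraries in colour and the unprefixed libraries in grey. 22-LAPTM4B and 23-GOLGA8N have the highest bars for MT2A, MT1X and TUBB2B, E7 has the highest grey bar for MT2A, TUBB2B, MT-TL1 and ASNS, and FGFR1 is highest in 20-ARSF and 21-CTPS2.

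The integrated stress response raises amino acid transporters, aminoacyl-tRNA synthetases and asparagine synthetase through the factor ATF4, which binds CARE sequences (C/EBP-ATF response elements). The ASNS promoter is given because ASNS had the largest gap of that list: chr7:97872409-97872658, minus strand, RefSeq GRCh38.p14, 5′ to 3′, with the CARE-like letters TGATGNAAN in capitals.
ASNS: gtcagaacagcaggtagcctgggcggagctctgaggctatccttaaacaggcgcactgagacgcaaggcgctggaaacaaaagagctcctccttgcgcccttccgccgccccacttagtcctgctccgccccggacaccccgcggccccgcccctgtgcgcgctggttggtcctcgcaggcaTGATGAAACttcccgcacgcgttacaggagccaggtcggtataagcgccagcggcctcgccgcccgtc
The match begins 68 bases before the start. It is found in 3.13% of 35116 promoters of the same length on either strand. Of 11 genes of this response looked for, 9 had a promoter in the table, and 3 of the 9 (ASNS, CHAC1 and the gene now named AARS1) held a match.

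Genes of the integrated stress response were mostly a little higher on the LAPTM4B and GOLGA8N side, and none was called by edgeR. ASNS, which makes asparagine, was 133 and 166 CPM in 20-ARSF and 21-CTPS2 and 256 and 287 CPM in 22-LAPTM4B and 23-GOLGA8N (log2 0.93 ± 0.205, edgeR adjusted p = 0.446, DESeq2 adjusted p = 0.0343). Among the unprefixed libraries ASNS reached 284 CPM in E7 and at most 210 CPM elsewhere. ATF4 itself was 251 and 295 CPM against 378 and 454 CPM (log2 0.67 ± 0.189), and SLC7A11, the cystine-glutamate exchanger, 13.8 and 20.4 CPM against 42.0 and 27.4 CPM (log2 1.10 ± 0.421). Its partner subunit SLC3A2 was 190 and 204 CPM against 252 and 256 CPM. The chaperone HSPA5 of the endoplasmic reticulum, listed with the unfolded protein response, was 369 and 485 CPM against 701 and 681 CPM (log2 0.76 ± 0.178), which DESeq2 called (adjusted p = 0.0176) and edgeR did not.

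In all, 27 of 36 tested genes of the integrated stress response had a positive log2 difference, with 11 higher and 2 lower without overlap (background 17.7% and 17.3%). The median was 0.27, and it was 0.05 without 20-ARSF. In the unfolded protein response list 10 of 20 genes were positive, 4 higher and 0 lower without overlap, with a median of -0.01. The NRF2 target list had 13 of 22 positive and a median of 0.07, with 10 higher and 1 lower without overlap. The glutathione synthesis gene GCLM was among the 10, at 27.7 and 21.4 CPM against 52.3 and 38.3 CPM.

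Mitochondrial DNA is transcribed as long precursors from which tRNAs are cut, and tRNAs are not polyadenylated in the way of mRNAs, so in a library primed with oligo-dT a read assigned to a tRNA gene can come from an uncut or adenylated intermediate. The tRNA genes of the mitochondrial genome, as a list chosen after values were seen, stood higher on the LAPTM4B and GOLGA8N side, and MT-TL1 was the 1 called by edgeR. MT-TL1 (mitochondrial positions 3230 to 3304) had 1836 CPM in 20-ARSF, 2325 CPM in 21-CTPS2, 4493 CPM in 22-LAPTM4B and 3915 CPM in 23-GOLGA8N (log2 1.08 ± 0.147, edgeR adjusted p = 0.0219). The unprefixed median was 1654 CPM, and E7 was the highest at 4121 CPM, with the next at 2152 CPM. MT-TF, the phenylalanine tRNA that opens the heavy-strand transcript, was 2475 and 2412 CPM against 3788 and 4040 CPM (log2 0.74 ± 0.128, edgeR adjusted p = 0.106), and was called by DESeq2 (adjusted p = 1.8e-05) and limma-voom (adjusted p = 0.00517). MT-TV, which lies between the ribosomal RNA genes, was 1922 CPM in 20-ARSF but 3383 CPM in 21-CTPS2, against 4031 and 3900 CPM. The rRNA genes on its sides were MT-RNR1, at 4083 and 3881 against 4512 and 4535 CPM, and MT-RNR2, at 18680 and 18128 against 24128 and 21723 CPM (log2 0.38 ± 0.107).

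Of 22 mitochondrial tRNA genes, 20 had a positive log2 difference, and 17 were higher without overlap and 1 lower (all genes 17.7% and 17.3%). Their median was 0.51 (0.38 to 0.67 with each library left out in turn). The 2 that were not positive were MT-TE (log2 -0.35) and MT-TC (log2 -0.04). The sum of the 22 was 18129 and 19828 CPM against 25131 and 25847 CPM, and the unprefixed libraries ran from 12718 to 24294 CPM. Among the 13 mitochondrial mRNAs the differences were smaller: 12 were positive, 7 were higher and 0 lower without overlap, and the median was 0.26 (0.11 without 21-CTPS2, 0.37 without 20-ARSF). Their sum was 95970 and 92565 CPM against 104248 and 100098 CPM, and the unprefixed libraries ran from 102671 to 131102 CPM (median 119236 CPM). All prefixed libraries but 22-LAPTM4B were thus below every unprefixed one, and 22-LAPTM4B was near the lowest. MT-ND5 had the largest positive difference of these mRNAs, at 2316 and 1776 against 3046 and 2671 CPM (log2 0.54 ± 0.162). MT-ATP8 was the exception at log2 -1.14, where 21-CTPS2 stood alone at 1847 CPM beside 560, 466 and 574 CPM, and reads in its overlap with MT-ATP6 are uncertain.

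The list of nuclear genes of oxidative phosphorylation leaned the other way in its counts, but its median of -0.04 was small. Of 81 genes, 34 were positive (42%, against 50.6% of all genes). Without overlap, 9 were higher (11.1%) and 23 lower (28.4%), against 17.7% and 17.3% of all genes. NDUFV1, a subunit of the electron input module of complex I, was 70.2 and 95.1 CPM against 40.5 and 42.3 CPM (log2 -0.93 ± 0.278). None of these nuclear genes was called by edgeR, DESeq2 or limma-voom.

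**Figure D4:**
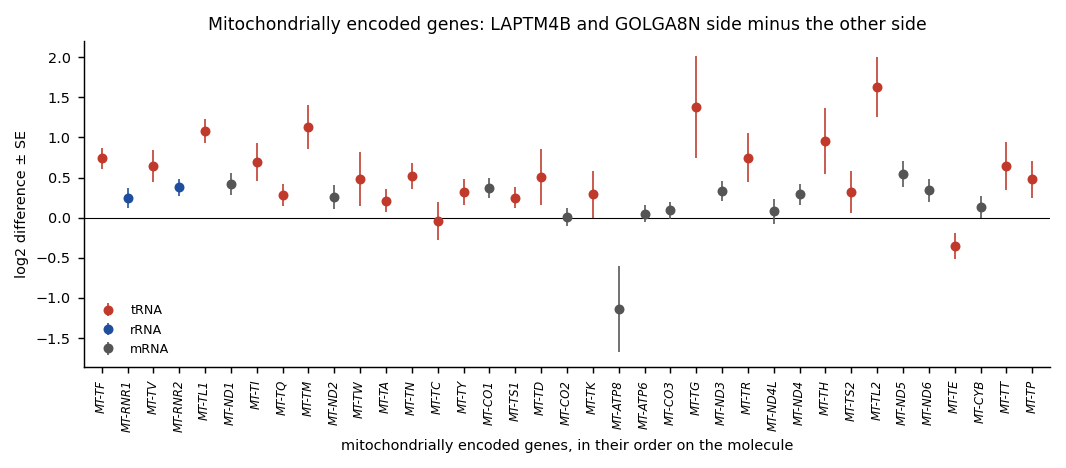
Log2 difference of the LAPTM4B and GOLGA8N side to the ARSF and CTPS2 side (points) with its SE (bars) for the mitochondrially encoded genes in their order on the molecule, coloured by tRNA, rRNA and mRNA. Most tRNA points lie above 0, MT-TL1, called by edgeR, lies at 1.08, and MT-ATP8 lies lowest at -1.14.

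Genes of glycolysis and of cholesterol synthesis were higher on the LAPTM4B and GOLGA8N side by their medians, but only in contrast to 20-ARSF. The glycolysis and hypoxia list had 25 of 33 genes positive, with 10 higher and 0 lower without overlap (all genes 17.7% and 17.3%). The list's median was 0.25, and 0.01 without 20-ARSF. Its summed level was 7029 CPM in 20-ARSF, 10398 CPM in 21-CTPS2, 9639 CPM in 22-LAPTM4B and 9072 CPM in 23-GOLGA8N, so 21-CTPS2 was the highest of the 4. ENO2, the neuronal enolase isoform, kept its sides apart at 26.4 and 17.4 CPM against 50 and 48.3 CPM (log2 1.21 ± 0.357). GPI, the glucose-6-phosphate isomerase, was 157 and 197 CPM against 265 and 257 CPM. The list of cholesterol synthesis and uptake had 16 of 25 positive, 8 higher and 1 lower without overlap, and a median of 0.36 that became -0.02 without 20-ARSF. Its sum was 2149 CPM in 20-ARSF and 3432, 3205 and 3528 CPM in 21-CTPS2, 22-LAPTM4B and 23-GOLGA8N. EBP, the sterol isomerase, was 94.9 and 78.4 CPM against 144 and 160 CPM (log2 0.87 ± 0.233), and FDPS, the farnesyl diphosphate synthase, 216 and 301 CPM against 372 and 413 CPM (log2 0.67 ± 0.202). No gene of either list was called by edgeR, DESeq2 or limma-voom. Fatty acid synthesis had 10 of 13 positive, 5 higher and 0 lower without overlap, with a median of 0.22 and 20-ARSF again the lowest in sum (1282 CPM beside 1750 to 2074 CPM).

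Erythroid genes were mostly lower on the LAPTM4B and GOLGA8N side, without any being called by edgeR, DESeq2 or limma-voom. Of 54 tested, 15 had a positive log2 difference, and 6 were higher (11.1%) and 16 lower (29.6%) without overlap. Of all genes, 17.7% were higher and 17.3% lower. The median of the list was -0.17 (-0.26 to -0.10 with each library left out). In bulk RNA, fewer cells of a type and less RNA per cell cannot be told apart. The embryonic globin HBE1 was 978 and 964 CPM against 714 and 598 CPM, and HBG2, a fetal globin, 3856 and 3601 CPM against 3056 and 2822 CPM. HBG2 shares near-identical sequence with HBG1, so the division of reads between them is uncertain. ALAS2, the first enzyme of erythroid heme synthesis, was 191 and 192 CPM against 108 and 131 CPM (log2 -0.62 ± 0.215). HEMGN, a nuclear regulator of erythroid cells, was 107 and 104 CPM against 65.9 and 57.9 CPM, and TFRC, the transferrin receptor, 385 and 423 CPM against 250 and 290 CPM. The sum over the list was 22313 and 22669 CPM in 20-ARSF and 21-CTPS2, above every unprefixed library (15993 to 21778 CPM), and 19491 and 17568 CPM in 22-LAPTM4B and 23-GOLGA8N, within that range. It was thus the ARSF and CTPS2 side that lay outside the unprefixed range.

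Nucleotide synthesis, the pathway of CTPS2, was also lower by its counts on the LAPTM4B and GOLGA8N side. In the pyrimidine list 6 of 21 genes were positive, with 0 higher and 7 lower without overlap and a median of -0.12. For this list and the next ones, the background over all genes was 17.7% higher and 17.3% lower. The summed level of the pyrimidine list was 1817 and 1765 CPM against 1535 and 1578 CPM, and CTPS1 (above) contributed to it. The unprefixed libraries ran from 1564 to 2096 CPM, with a median of 1884 CPM that was above all 4 prefixed libraries. The purine list had 3 of 14 positive, 0 higher and 4 lower, with a median of -0.09. For cell cycle genes of S and G2/M phases the numbers were 18 of 47 positive, 2 higher and 12 lower, with a median of -0.04. PCNA, the sliding clamp of DNA polymerases, was 84.8 and 85.3 CPM against 44.5 and 49.2 CPM (log2 -0.80 ± 0.261), below every unprefixed library (50.3 to 127 CPM). No gene of these lists was called by edgeR, DESeq2 or limma-voom.

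The lists closest to the study's question, those of vesicle traffic, held 2 of the 6 called genes, in opposite directions, where 0.0467% of all genes were called higher and 0.00935% lower. VPS28 was the 1 gene called of 42 in the endosome and ESCRT list, and AP1M2 the 1 called of 27 in the list of Golgi and endosome retrieval. Both genes passed the low-count filter only through the side where they were high, so these calls add no separate evidence about the lists. Neither gene was called with limma-voom, with the spread shared with unprefixed libraries or with unmatched transcripts kept. The first list had 18 positive, 4 higher and 9 lower without overlap (median -0.09). The second had 11 positive, 2 higher and 8 lower (median -0.09, and 0.04 without 20-ARSF). The lower shares were 21.4% and 29.6%, and the higher shares 9.52% and 7.41%, against 17.3% and 17.7% of all genes. Within the first, RAB5C, a GTPase of early endosomes, was 418 and 317 CPM against 220 and 199 CPM (log2 -0.75 ± 0.209). TSG101, which binds VPS28 in ESCRT-I, was 43.4 and 47.2 CPM against 29.2 and 30.8 CPM, opposite in sign to VPS28. Within the second, VPS29, a retromer subunit, was 75.3 and 94 CPM against 50.6 and 53.8 CPM (log2 -0.63 ± 0.262).

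The remaining traffic lists had medians between -0.07 and 0.06, against 0.01 over all genes. As background for their counts, 17.7% of all genes were higher and 17.3% lower without overlap. Endocytosis genes had 12 of 28 positive, 3 higher and 10 lower without overlap, and a median of -0.07. Lysosome genes had 26 of 52 positive, 7 higher and 6 lower, and a median of 0.00. Vesicle coats between the endoplasmic reticulum and the Golgi had 19 of 34 positive, 9 higher and 3 lower, and a median of 0.06. Golgins other than GOLGA8 had 8 of 17 positive, 1 higher and 3 lower, and a median of -0.03. The LAPTM family and its partners had 9 of 19 positive, and proteins known to bind antisense oligonucleotides 15 of 39, with medians of -0.07 and -0.04. Interferon response genes, of which 10 of 32 were expressed enough to test, had 1 positive, IRF1, and a median of -0.10. In none of these lists was a gene called by edgeR, DESeq2 or limma-voom.

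**Figure D5:**
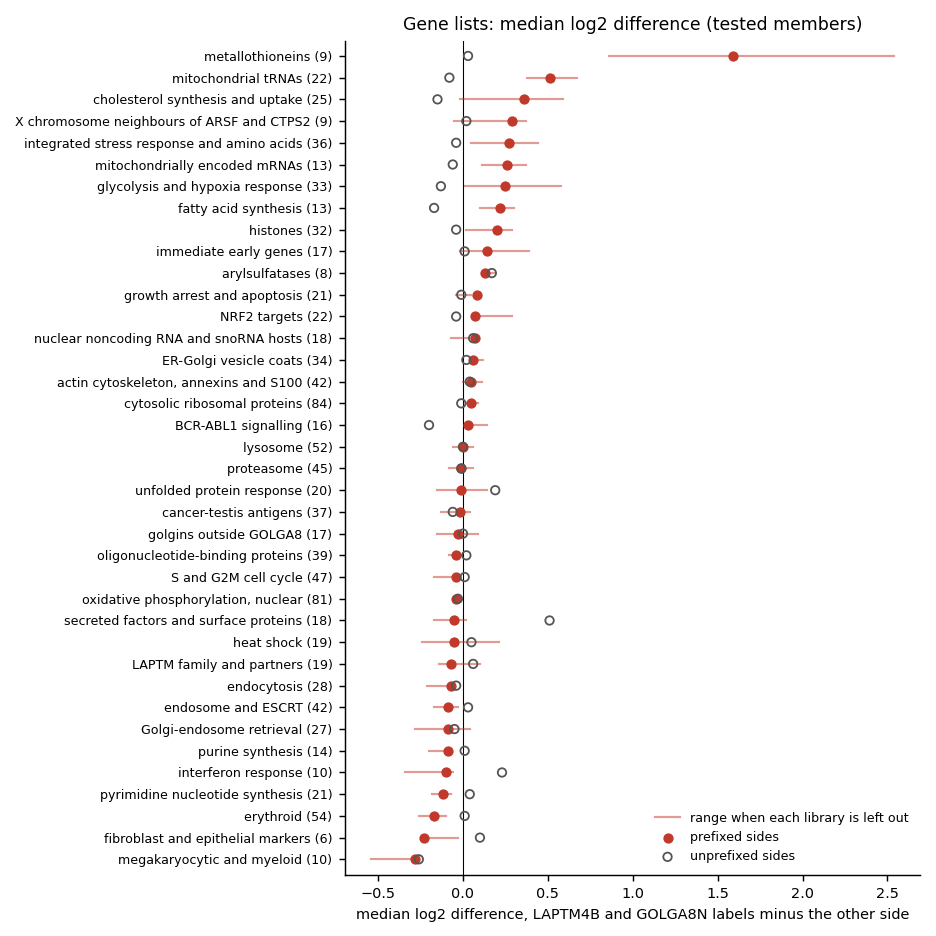
Median log2 difference between the prefixed sides (red points) of each gene list with at least 5 tested members, with the range over the fits that leave out each library in turn (red lines), and the same list's median between LAPTM4B or GOLGA8N and the other gene labels without a prefix (open points). The number of genes tested between the prefixed sides stands in brackets, and for some lists fewer were tested without a prefix. Metallothioneins lie at 1.59 and mitochondrial tRNAs at 0.51, and the lines of glycolysis and cholesterol synthesis reach down to 0.01 and -0.02.

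Some genes set 1 library apart from the other 3, which an average over a side hides. KCNAB1, a potassium channel subunit, had 50.6 CPM in 23-GOLGA8N and 0 in the other 3, and no unprefixed library exceeded 4.58 CPM. RHOXF2, a homeobox gene of the germ line, had 138 CPM in 23-GOLGA8N and 0 in the other 3, but 159 CPM in Neg and 0 to 86.3 CPM in the remaining unprefixed libraries, while its near-identical copy RHOXF2B had 63.8 CPM there and 166 to 212 CPM in the other 3, so the reads may be divided differently between the copies. In 21-CTPS2 the histone gene HIST1H4C had 169 CPM, beside 11.6 to 17.9 CPM in the other 3 and at most 40 CPM without a prefix. The pseudogene AC116533.1 had 858 CPM in 21-CTPS2 and 0 in the other 3, but 0 to 1100 CPM without a prefix. The pseudogene RPL13AP5 had 41.9 CPM in 20-ARSF alone of the 4, and 3 of 13 unprefixed libraries held reads of it. HLA-E, a class I histocompatibility gene, had 0 in 21-CTPS2 and 22.9, 50 and 30.1 CPM in 20-ARSF, 22-LAPTM4B and 23-GOLGA8N.

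The same target genes can be followed in the libraries without a prefix, where 4 libraries (LAPTM4B 1 and 2, GOLGA8N 1 and 2) were set against the 5 that name TTR, TRPC5OS, ADORA2A, UBE2V1 and COL6A6. No gene was called among 10150 tested (0%) by edgeR, with 342 (3.37%) at an unadjusted p under 0.05 and a lowest adjusted p of 0.538. DESeq2, run without edgeR's low-count filter but with its own filtering on mean count, gave 3 genes and limma-voom 0. By edgeR, 1 was called without LAPTM4B 1, 2 without LAPTM4B 2 and 2 without UBE2V1. Of the genes called between the prefixed sides, AP000777.3 and AP1M2 were not tested there, and 4 could be tested and did not pass. TUBB2B differed by -0.12 on the log2 scale, MT-TL1 by -0.34, SKA1 by 0.75 and VPS28 by 0.10. MT2A, which edgeR did not call between the prefixed sides, differed by 0.12. Whether the side difference itself differed by prefix was tested as an interaction of side and prefix over 13 libraries. No gene was called among 12997 (0%), with 566 (4.35%) at an unadjusted p under 0.05. TUBB2B and MT-TL1 had the lowest adjusted p there, 0.111 each, with interaction terms of 1.85 and 1.42. DESeq2, run in the same way, called 9 genes in the interaction and limma-voom 1. Of the 133 genes at least 2-fold higher on the prefixed LAPTM4B and GOLGA8N side, 126 were tested without a prefix and 66 were positive there. Of the 147 at least 2-fold lower, 146 were tested and 79 were positive, against 50.2% of all genes, so neither set leaned to the direction it had between the prefixed sides. CD44, a hyaluronan receptor, had opposite signs: 32.5 and 29.4 CPM against 8.68 and 15.2 CPM between the prefixed sides (log2 -1.34 ± 0.463), and 2.64 without a prefix (edgeR adjusted p = 0.538). The unprefixed difference came mostly from GOLGA8N 1 and 2, at 45.7 and 58.1 CPM. LAPTM4B 1 and 2 stood at 6.33 and 12.3 CPM, beside 2.41 to 5.98 CPM in the 5 libraries of the other gene labels.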

How the data were processed

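The 17 samples were profiled by 3′ tag RNA sequencing per the labels, from oligo-dT primers that hold random identifiers of 12 bases. Each deposited file lists 228297 transcripts with estimated counts and TPM made by the authors, in Salmon's column layout per the file headers. The deposited TPM served in 1 alternative only. The submitters' processing notes list UMI-tools, featureCounts, STAR and Salmon 0.7.2 beside the builds hg38 and GRCh38. Whether identifiers were collapsed, and the strand setting, are not given in the sources used here.

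Estimated counts were summed per gene by Ensembl transcript identifier with GENCODE 29, which matched 205336 transcripts. Those that did not match, 3.32 to 3.6% of the reads in a library, were left out. Before testing, each gene sum was rounded to a whole number. The prefixed sides were compared with edgeR 4.0.16 under R 4.3.3 (filterByExpr, TMM, quasi-likelihood test with robust fit, Benjamini-Hochberg adjustment, threshold 0.05) on the 4 prefixed libraries. The unprefixed contrast was fitted the same way, and the interaction on 13 libraries in 1 fit. An SE is the size of the log2 difference divided by the square root of F. CPM use the reads in genes, and ratios of genes at 1 to 3 reads carry exact binomial intervals at 95%. Alternatives were DESeq2 1.42.0, limma-voom (limma 3.58.1), other scalings and filters, a shared spread, unmatched transcripts kept, and each library left out. DESeq2 was run without filterByExpr, and its own filtering on mean count was left on. Tables and promoter matches were made in Python 3.11.15 with scipy 1.17.1. The fit was also run on counts simulated from the means and spread of the 4 prefixed libraries, with known changes of moderate size in well-counted genes. That run does not cover genes nearly absent from 1 side.

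Genes were named by rule: the targets and their relatives, the 10 genes with the lowest p, the 8 widest gaps in each direction at a mean of 20 CPM or more, 3 high and 2 low genes for each library, and up to 4 members of a list with the widest gaps. HBE1, HBG2, TUBB2A, MT1E, MT1F and RHOXF2B, and the mitochondrial genes other than MT-TL1 and MT-TF, were added beside these or chosen after their values were seen. Not every gene that the rule names is reported here. The groups and the lists were chosen with earlier results of these data known.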

Additional observations from a re-analysis of the deposited data

Results flagged for a closer look

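The library labelled E7, which enters no comparison of the sides, was the highest of the 13 unprefixed libraries in 3 genes that were high on the LAPTM4B and GOLGA8N side. It held 4121 CPM of MT-TL1 against at most 2152 CPM, 271 CPM of MT2A against at most 133 CPM and 96.6 CPM of TUBB2B against at most 50 CPM, above Neg, GFP and RFP in each case. E7 was the highest of the 13 unprefixed libraries for 12 of 22 mitochondrial tRNAs, 17 of 33 glycolysis genes, 14 of 25 cholesterol genes and 10 of 36 genes of the integrated stress response, against 765 of 10696 genes tested (7.15%). Over the 133 genes at least 2-fold higher, E7 was the highest in 19 and above the median of the others in 81, but RFP and TTR were above it in 93 and 88. Over the 147 lower genes, E7 was the highest in 9 and above that median in 62. GFP was the highest in 33 of the former and 44 of the latter, but it is the shallowest library (549962 reads in genes). The likeness of E7 did not extend to all genes, since SKA1 was at 0 in E7. What the label E7 stands for is not given, and its part in the comparison was not tested.

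Transcripts without a gene in the annotation used held reads in single prefixed libraries and none in Neg, GFP or RFP. In CPM, ENST00000634454.1 had 27.1 in 20-ARSF (111 reads, and 21.5 CPM in LAPTM4B 1), ENST00000618402.4 had 26.7 in 22-LAPTM4B (92.5 reads), ENST00000629591.2 had 21 in 22-LAPTM4B (72.7 reads, and 16 CPM in E7) and ENST00000611363.1 had 38.5 in 23-GOLGA8N (83.7 reads).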

How the results depend on the processing

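The count of 6 genes called between the prefixed sides became 16 with DESeq2 under its own filtering only (12 higher) and 40 with edgeR and no filter (28 higher). The count was 1 with the spread shared with 9 unprefixed libraries and 1 with unmatched transcripts kept. It was 21 to 86 with each library left out, and 4 to 9 under RLE size factors, library totals, limma-voom and a minimum mean of 10 CPM. The unprefixed count of 0 became 3 with DESeq2 under its own filtering only and 1 with Neg, GFP and RFP added, and was 0 to 2 with each library left out. The interaction count of 0 became 9 with DESeq2 under its own filtering only and 1 with limma-voom. The 280 genes past 2-fold without overlap became 90 at a floor of 20 CPM (41 higher) and 124 from deposited TPM (55 higher), and were 277 after TMM scaling and 303 at a pseudocount of 0.5 CPM. From TPM the median log2 difference of all genes tested was -0.12, and list medians were lower with it (0.10 for mitochondrial mRNAs, 0.03 for the integrated stress response). The sign of the log2 difference turned for GOLGA8B (-0.07 without 22-LAPTM4B, -0.11 from TPM, -0.07 to 0.97 with each library left out) and LAPTM4A (-0.05 without 21-CTPS2, -0.06 from TPM, -0.05 to 0.27 with each library left out). The cause was not tested. No paired analysis was possible because the prefixed libraries carry no shared replicate number, and the numbers 1 and 2 of the unprefixed LAPTM4B and GOLGA8N libraries lie on 1 side of the contrast. Depth limits genes under about 1.38 CPM, which 3 reads make in 23-GOLGA8N.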

Other observations

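None of the genes of the following classes was called by edgeR between the prefixed sides. MALAT1, a nuclear long noncoding RNA, was 272 and 253 CPM in 20-ARSF and 21-CTPS2 and 521 and 400 CPM in 22-LAPTM4B and 23-GOLGA8N (log2 0.87 ± 0.198, DESeq2 adjusted p = 0.0176). The unprefixed libraries held 175 to 1633 CPM, the highest being GFP, the shallowest library, and the next TTR at 472 CPM. NORAD, a cytoplasmic long noncoding RNA, was 170 and 186 CPM against 126 and 130 CPM (log2 -0.41 ± 0.21). Among histone genes 21 of 32 were positive, 8 higher and 1 lower without overlap, with a median of 0.20 that was 0.02 without 23-GOLGA8N and 0.00 from TPM. The variant HIST1H2BD, which can be polyadenylated, was 16.9 and 18.2 CPM against 33.8 and 32.2 CPM. Genes of cytosolic ribosomal proteins had 58 of 84 positive, 24 higher and 2 lower, but their median of 0.05 became -0.02 when libraries were scaled by their totals. Cancer-testis antigens had 16 of 37 positive, 3 higher and 9 lower (median -0.02), and proteasome subunits 22 of 45, 6 higher and 10 lower (median -0.01). The background for the counts of these classes was 17.7% of all genes higher and 17.3% lower without overlap.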
